A study of Mus musculus with 2 samples.

Results

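Coding exons of the mouse genome held 1786 DNase I-hypersensitive sites that lay away from the starts of a basic gene set and were found in both hindbrain libraries. They were the replicate 1 peaks that overlapped a replicate 2 peak by at least 1 bp, had their midpoint in coding sequence of the GENCODE M21 basic gene models and lay more than 1 kb from every transcription start site (TSS) in that set. They made up 1786 of the 81031 shared distal peaks, 2.20% of them with a 95% Wilson interval of 2.11 to 2.31%. All intervals given here cover counting error only. The whole replicate 1 list held 263679 peaks, and 111722 of them were shared with the 148804 peaks of replicate 2.

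DNase-seq reads where the nuclease DNase I can cut chromatin, so a peak marks a stretch of open DNA. The tissue was the hindbrain of mouse embryos of strain B6NCrl at embryonic day 14.5, with males and females pooled. Hindbrain gives rise to the cerebellum, pons and medulla. The labels give 1 group of 2 biological replicates, each with its own tissue sample and library under a common donor label. With no second group there was no comparison to test between conditions, and peaks of 1 tissue are not replicates of each other. Shares of peaks are therefore given with their intervals and no p-value.

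Most enhancers, the elements that act on a promoter from a distance, lie in introns and between genes, but some lie inside protein-coding exons, where the same bases also spell amino acids. A DNase-hypersensitive site in an exon can also be a promoter from which a shorter or unannotated transcript starts. CpG islands are stretches where the CpG dinucleotide has been kept at a high density. They mark many vertebrate promoters, and some lie inside genes, away from annotated starts.

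The members ranged from CpG-dense stretches to CpG-poor ones with motifs of distal factors, and the sequences of a few of them show the range. Sequences are 5′ to 3′ on the plus strand of GRCm38.p6, the same assembly as mm10, and each but the last pair is the whole 150 bp peak. The first 4 are among the 15 strongest members, and their CpG dinucleotides are in capitals. Zfp771 held 30 of them in 150 bp, Fbxl22 held 25, Snx20 held 29 and Cacna1a held 33.
Zfp771, chr7:127254236-127254385: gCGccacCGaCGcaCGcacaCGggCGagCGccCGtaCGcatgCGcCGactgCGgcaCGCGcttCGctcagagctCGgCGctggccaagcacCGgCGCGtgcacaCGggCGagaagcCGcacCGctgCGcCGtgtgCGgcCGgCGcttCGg
Fbxl22, chr9:66511696-66511845: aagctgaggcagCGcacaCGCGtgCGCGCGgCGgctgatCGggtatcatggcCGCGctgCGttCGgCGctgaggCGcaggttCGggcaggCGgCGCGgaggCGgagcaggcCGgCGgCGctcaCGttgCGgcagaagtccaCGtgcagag
Snx20, chr8:88627396-88627545: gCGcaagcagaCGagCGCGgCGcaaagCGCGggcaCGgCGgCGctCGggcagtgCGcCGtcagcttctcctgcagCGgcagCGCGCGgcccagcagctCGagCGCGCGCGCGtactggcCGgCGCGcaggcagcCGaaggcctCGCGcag
Cacna1a, chr8:84639536-84639685: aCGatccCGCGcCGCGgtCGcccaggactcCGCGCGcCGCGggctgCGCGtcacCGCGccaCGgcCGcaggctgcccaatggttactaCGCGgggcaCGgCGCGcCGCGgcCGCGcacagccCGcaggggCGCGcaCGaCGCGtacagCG

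All 4 stretches were coding over their full length. Zfp771 encodes a zinc finger protein, Fbxl22 an F-box protein and Snx20 a sorting nexin. Cacna1a encodes the pore subunit of the P/Q-type calcium channel, which Purkinje cells of the cerebellum use heavily. In each of these genes the peak lay in the last coding exon, exon 2 of 2 in Zfp771 and Fbxl22, 3 of 3 in Snx20 and 47 of 47 in Cacna1a.

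The next 6 carry matches to consensus motifs of factors that bind away from promoters, with the match in capitals. CTCF, the insulator protein, is shown in Synpo2l and Gpr153. RFX factors, which switch on genes of cilia, are shown in Lonp2 and Dner. AP-1, the dimer of JUN and FOS proteins, is shown in Myo3b and Nkx2-2. In Myo3b 97 of the 150 bases were coding, and the match lay past the exon edge.
Synpo2l, chr14:20661096-20661245: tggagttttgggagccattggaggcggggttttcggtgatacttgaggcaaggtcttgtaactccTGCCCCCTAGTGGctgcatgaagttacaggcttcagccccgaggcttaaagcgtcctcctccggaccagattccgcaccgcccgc
Gpr153, chr4:152283336-152283485: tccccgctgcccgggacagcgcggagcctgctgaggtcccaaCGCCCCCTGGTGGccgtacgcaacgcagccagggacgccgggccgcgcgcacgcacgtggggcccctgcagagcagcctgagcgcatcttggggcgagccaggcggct
Lonp2, chr8:86713936-86714085: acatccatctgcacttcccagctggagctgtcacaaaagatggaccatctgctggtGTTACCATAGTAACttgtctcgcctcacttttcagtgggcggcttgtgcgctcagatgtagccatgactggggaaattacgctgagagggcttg
Dner, chr1:84585516-84585665: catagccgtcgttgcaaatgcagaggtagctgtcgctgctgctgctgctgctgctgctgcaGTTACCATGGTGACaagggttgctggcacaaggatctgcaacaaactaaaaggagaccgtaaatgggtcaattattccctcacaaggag
Myo3b, chr2:70126896-70127045: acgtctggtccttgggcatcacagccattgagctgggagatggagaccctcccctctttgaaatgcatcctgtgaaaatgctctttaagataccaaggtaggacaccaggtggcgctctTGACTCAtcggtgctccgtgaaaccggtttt
Nkx2-2, chr2:147177796-147177945: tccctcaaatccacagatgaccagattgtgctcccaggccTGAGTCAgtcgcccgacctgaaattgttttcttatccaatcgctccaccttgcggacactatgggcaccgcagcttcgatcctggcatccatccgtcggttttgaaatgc

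Further peaks show the motif most common among the members, the E-box CAGCTG that proneural basic helix-loop-helix factors bind, in Angptl6, and a motif of promoters, that of NRF1, in Ankrd24 and Apold1, again with the match in capitals.
Angptl6, chr9:20878176-20878325: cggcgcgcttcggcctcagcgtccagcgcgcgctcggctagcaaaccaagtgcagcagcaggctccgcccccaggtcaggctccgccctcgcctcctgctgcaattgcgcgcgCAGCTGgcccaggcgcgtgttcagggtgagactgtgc
Ankrd24, chr10:81643716-81643865: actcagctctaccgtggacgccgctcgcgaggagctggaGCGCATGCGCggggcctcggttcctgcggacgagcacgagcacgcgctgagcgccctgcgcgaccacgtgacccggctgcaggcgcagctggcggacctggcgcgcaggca
Apold1, chr6:134983636-134983785: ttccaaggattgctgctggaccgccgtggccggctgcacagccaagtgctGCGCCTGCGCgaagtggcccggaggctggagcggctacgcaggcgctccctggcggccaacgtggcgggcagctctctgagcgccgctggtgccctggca

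The last pair spans 30 bases around a transcription start that RefSeq curates and the GENCODE basic set lacks. The bases on the transcript's side of that start are in capitals. Psmc2 is transcribed to the right and 2310034G01Rik to the left.
Psmc2, chr5:21786732-21786761: gggaagagaaagggaAGACACCAGCGGAAG
2310034G01Rik, chr19:46348974-46349003: TGGTGACGCGCACGTcggtgcgtgggtagg

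The tissue label was checked against marker promoters. All 10 hindbrain and cerebellar genes, 4 of 4 neuronal genes and 3 of 3 progenitor genes on the marker list had a shared promoter peak. None of the 3 liver, 2 epidermal, 2 endothelial or 2 microglial genes had one, while Myod1, 1 of 2 muscle genes, did. How deeply either library was sequenced is not known from these files. The peak score is the authors' own whole number, at most 150, with its meaning not stated, and it is used here to describe and rank peaks.

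Coding sequence held more sites for its length than introns or intergenic sequence. Distal coding bases held 59.9 shared peaks per Mb, against 38.3 per Mb in introns, 26.2 per Mb between genes, 47.1 per Mb in untranslated exon sequence and 58.4 per Mb in exons of noncoding transcripts. They supplied 2.20% of the shared distal peaks from 1.18% of the distal bases, 29.8 of 2532 Mb. Counting only the peaks wholly in coding sequence gave 1.06%. The share of bases was not restricted in the same way, so it is no measure for that value. The excess over introns was largest close to a start. Between 1 and 2 kb from a TSS coding sequence held 143 shared peaks per Mb against 80.7 in introns, and beyond 50 kb the densities were 49.0 and 31.7 per Mb. Coding sequence stood above introns and above intergenic sequence in each of the 5 distance classes.

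**Figure D1:**
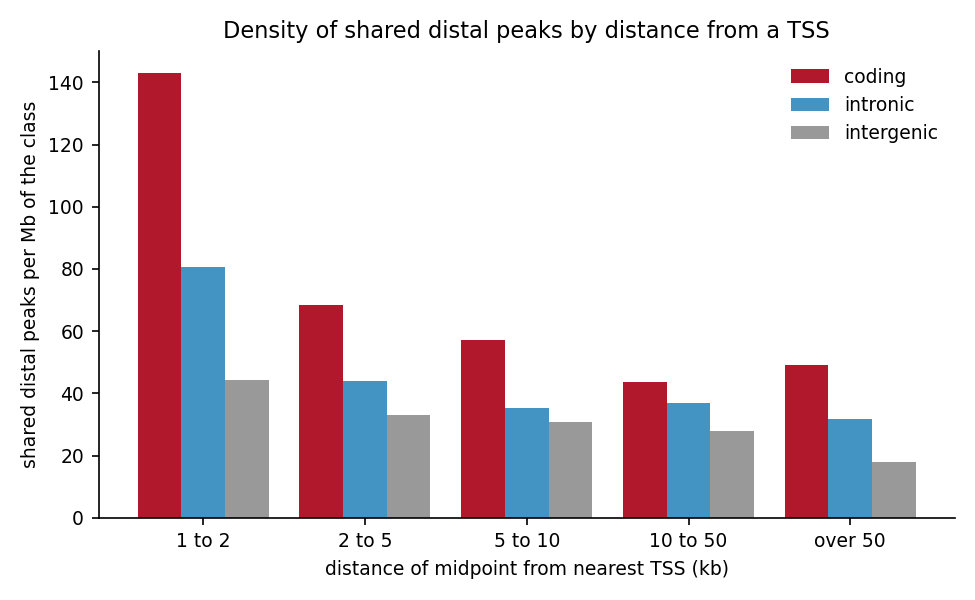
Shared distal peaks per Mb (vertical axis) by distance of the midpoint from the nearest TSS in kb (horizontal axis), for coding, intronic and intergenic sequence. Coding sequence runs from 143 per Mb at 1 to 2 kb to 43.7 per Mb at 10 to 50 kb. It lies above intronic and intergenic sequence at every distance.

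Distal coding peaks of replicate 1 were found again in replicate 2 slightly more often than intronic and intergenic peaks, and about as often as those in other exon sequence. Of the 4282 distal coding peaks of replicate 1, 1786 overlapped a replicate 2 peak, which is 41.7% (40.2 to 43.2%), against 37.3% of intronic, 36.6% of intergenic, 43.3% of untranslated-exon, 41.6% of noncoding-exon and 37.2% of all distal peaks. Overlap is what defines the members, so this count is only a description. Seen from replicate 2, 80.5% of its 2185 distal coding peaks overlapped a replicate 1 peak, against 77.3% of intronic and 75.5% of intergenic ones. Among peaks in the top 10% of replicate 1 scores the shares were alike, 98.5% in coding exons, 98.4% in introns and 98.2% between genes. Most pairs lay almost on top of each other. The median overlap was 130 bp of 150 bp, 1478 members (82.8%) overlapped by 100 bp or more, and 481 had the same midpoint in both libraries.

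Scores of the members resembled those of other distal sites and lay below those of promoters. In replicate 1 the members scored a median of 70 (quartiles 52 and 89, range 13 to 147), and in replicate 2 a median of 35 (quartiles 26 and 50, range 10 to 128). Intronic shared peaks had medians of 68 and 31, intergenic ones 68 and 31, and shared promoter peaks 95 and 53. As within-library percentiles, the members' medians were 75.2 and 60.4, against 73.6 and 53.0 for introns and 89.0 and 79.0 for promoters. The 2 libraries ranked the members alike, with Spearman's rho of 0.843 over 1786 peaks as a description. A score in the top 10% of both libraries was reached by 96 members, 5.38% (4.42 to 6.52%), against 3.11% of intronic, 4.70% of intergenic and 34.4% of promoter peaks, and 3.96% of all distal shared peaks.

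**Figure D2:**
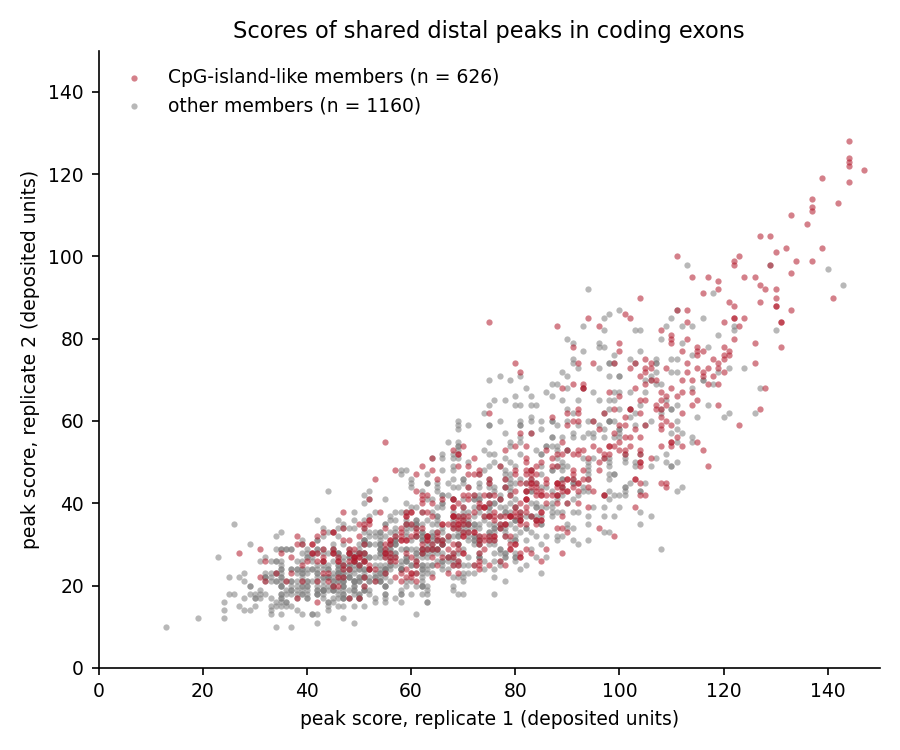
Peak score in replicate 2 (vertical axis) against replicate 1 (horizontal axis), in deposited units, for each of the 1786 members. Red points are the 626 CpG-island-like members and grey points the 1160 others. The points follow 1 rising band, and red points crowd its upper end.

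The strongest members were almost all CpG-rich. The peak in coding exon 5 of 9 of Atn1, the atrophin gene (chr6:124745616-124745765), scored 144 in replicate 1 and 128 in replicate 2. Fbxl22 scored 144 and 124, and Angptl6, an angiopoietin-like secreted factor, scored 144 and 123. All of these lay at percentiles of 99.5 or higher in both libraries. Zfp771 scored 144 and 122. Kank3, an actin regulator of the KANK family, scored 144 and 118 in its second coding exon (chr17:33817616-33817765). Sft2d3 scored 147 and 121, and Nrg2, a neuregulin growth factor, scored 137 and 112. Nrg2 is the lowest of these in both libraries, at percentiles of 98.2 and 98.0.

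Of the other strong members, Notch4, Cacna1a, Pomc and Snx20 lay in a last coding exon. B430305J03Rik lay in a sole coding exon, and Ankrd24, Crlf2 and Psmc2 in earlier ones. Notch4, a Notch receptor best known from blood vessels, carried a peak of 139 and 119 in its last coding exon, 30 of 30 (chr17:34587516-34587665). Cacna1a scored 142 and 113 and Ankrd24 scored 133 and 110. Pomc, the precursor of melanocortins and endorphin, scored 139 and 102 in its last coding exon (chr12:3959916-3960065), 5040 bp from the nearest TSS. Crlf2, a subunit of the receptor for thymic stromal lymphopoietin, scored 137 and 114 (chr5:109557076-109557225). Snx20 scored 136 and 108. Psmc2, an ATPase subunit of the proteasome, scored 137 and 111, and B430305J03Rik (chr3:61363756-61363905) scored 140 and 97. Of these 15 strongest sites, B430305J03Rik was the one that was not island-like.

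At the other end, the weakest member was in coding exon 4 of 23 of Adamts18, a secreted protease (chr8:113777876-113778025), with scores of 13 and 10. C130026I21Rik scored 19 and 12, Zfp810 scored 24 and 12, Mfsd10 scored 24 and 14 and Pkd2, the polycystin-2 channel, scored 24 and 16. None of these 5 was island-like. Some members ranked far apart in the libraries. Me3, mitochondrial malic enzyme, scored 76 and 18, which are percentiles of 79.4 and 16.3, and Ash1l, a histone methyltransferase, scored 78 and 21. In the other direction Sim1, a transcription factor of hypothalamic neurons, scored 26 and 35, percentiles of 7.3 and 60.4, and Pik3ca, a catalytic subunit of PI3-kinase, scored 23 and 27.

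Members were spread unevenly over the exons of their genes. Internal coding exons held 1041 of them (58.3%, 56.0 to 60.6%), last coding exons 431 (24.1%, 22.2 to 26.2%), sole coding exons 183 (10.2%, 8.92 to 11.7%) and first coding exons 131 (7.33%, 6.22 to 8.64%). Among the 855 peaks wholly in coding sequence internal exons held 37.8%, and among members beyond 5 kb from a TSS 73.6%. Per Mb of distal coding sequence in 1 transcript a gene the order was different. Genes with a sole coding exon had 140 per Mb, first coding exons 103, last coding exons 86.2 and internal ones 46.4, against 59.4 over all of them. First coding exons enter this count only where they lie more than 1 kb from a start, behind a long first intron or a long untranslated leader. Members in sole exons lay a median of 1547 bp from the nearest TSS, those in first exons 1615 bp, in last exons 5585 bp and in internal ones 10565 bp. The part that distance to a start has in the order of densities was not tested. Median scores differed little, at 75 and 36 in sole exons, 72 and 36 in first, 76 and 39 in last and 67 and 33 in internal ones.

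Long exons held more sites for their length. The exon holding a member had a median coding length of 232 bp, with quartiles of 146 and 813 bp and a range of 11 to 9310 bp. Exons of up to 150 bp held 41.9 members per Mb, those of 150 to 300 bp held 57.5, those of 300 to 1000 bp held 86.7 and longer ones 78.6. Along the coding sequence from its start to its end, in 5 equal stretches, the densities were 57.8, 50.7, 54.9, 62.3 and 69.8 members per Mb. A peak of 150 bp is wider than many exons. Of the members 855 (47.9%) lay wholly in coding sequence, 824 (46.1%) crossed an exon edge into an intron and 107 (5.99%) reached into untranslated exon sequence. For 979 members (54.8%) the nearest TSS belonged to the host gene, and the median distance to the nearest TSS was 6872 bp, with quartiles of 2572 and 17678 bp.

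**Figure D3:**
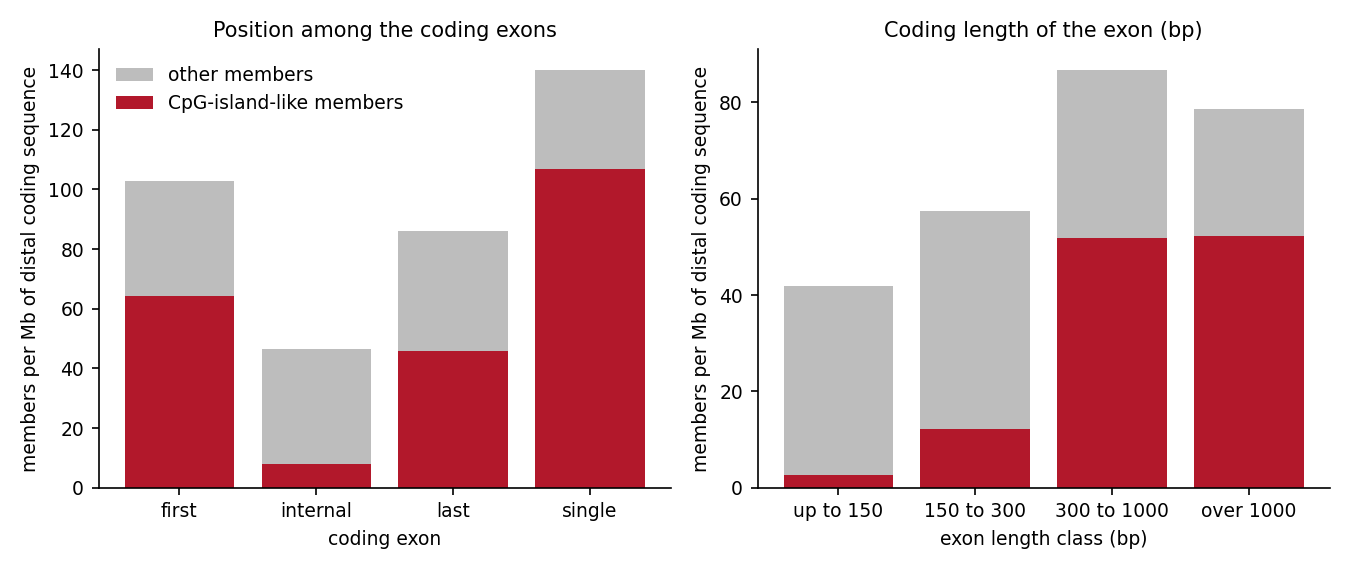
Members per Mb of distal coding sequence (vertical axes) by position of the exon among the coding exons of its gene (left) and by coding length of the exon in bp (right). Red is the island-like share of each bar. Sole coding exons reach 140 per Mb and internal ones 46.4 per Mb, and red fills 76.6% of the bar of sole exons and 17.4% of that of internal exons.

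The members were far richer in CpG than other distal sites. A region was called island-like when the 500 bp around its midpoint had more than 50% GC and a CpG observed/expected ratio above 0.6. That held for 626 of the 1786 members, 35.1% (32.9 to 37.3%), against 2.40% of intronic and 2.95% of intergenic sites. It held for 7.60% of untranslated-exon and 6.90% of noncoding-exon sites, 56.6% of shared promoter peaks and 3.52% of all distal shared peaks. Among the 855 peaks wholly in coding sequence 58.0% were island-like, and among members beyond 5 kb from a TSS 20%. Coding sequence without a site was rarely island-like. Among 166596 windows placed at the centres of distal coding intervals that touched no peak or hotspot, 0.700% (0.661 to 0.741%) were island-like. Weighting each set to the members' GC content left a smaller gap to the other distal sites, with 35.1% of members against 19.2% of intronic and 21.6% of intergenic peaks. Other exon sites came closest, with 24.6% of untranslated-exon and 27.3% of noncoding-exon peaks. Promoter peaks had 50.3% and empty coding windows 9.18%.

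Distance and exon length moved with this share. Of members 1 to 2 kb from a TSS 61.4% were island-like, and the next classes had 51.4, 31.4 and 15.7%, with 7.38% beyond 50 kb, against 10.8% of intronic sites at 1 to 2 kb and 0.547% beyond 50 kb. Empty coding windows stayed between 1.32 and 0.513% over the same distances. By coding length the members' share was 6.47% in exons of up to 150 bp, 21.5% at 150 to 300 bp, 59.4% at 300 to 1000 bp and 66.5% in longer ones, against 0.210, 0.702, 5.58 and 7.23% of empty windows. Short exons fill little of a 500 bp window, so there it describes mostly intron. The part that distance to a start or exon length has in the gap was not tested.

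**Figure D4:**
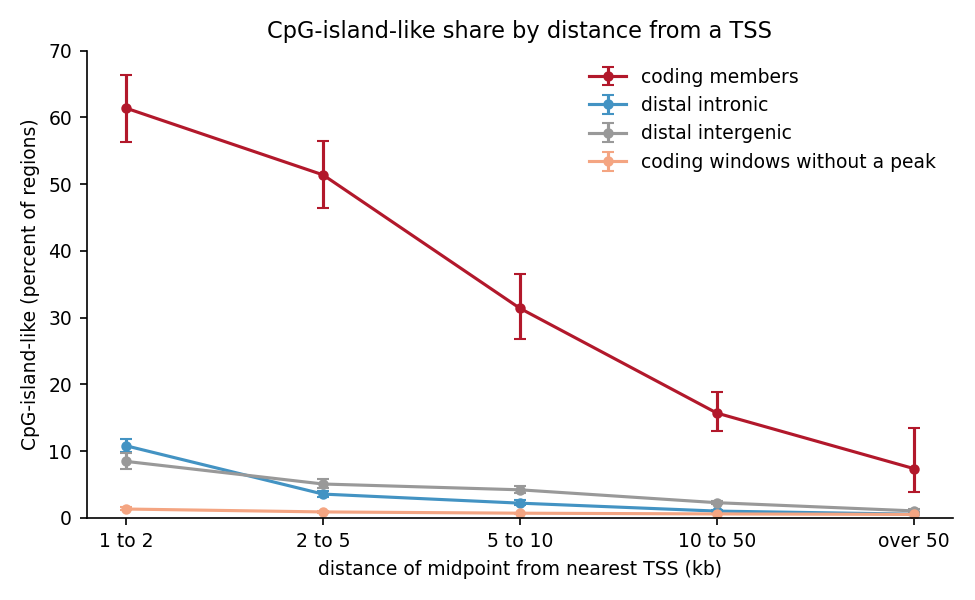
Island-like share in percent (vertical axis) by distance of the midpoint from the nearest TSS in kb (horizontal axis), with 95% Wilson intervals as bars, for members, intronic and intergenic shared peaks and coding windows without a peak. Members lie highest at every distance, from 61.4% at 1 to 2 kb to 7.38% beyond 50 kb, and the empty windows stay at or below 1.32%.

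Read the other way, island-like exons held a member more often than others. Of 2132 distal coding intervals that were island-like at their centre, 471 held a member, 22.1% (20.4 to 23.9%), against 1107 of 172635 other intervals, 0.641% (0.605 to 0.680%). The gap held within each class of length. Among intervals over 1000 bp 38.9% of island-like and 4.63% of other intervals held a member, at 300 to 1000 bp 26.7 and 1.80%, at 150 to 300 bp 19.1 and 0.876%, and up to 150 bp 7.17 and 0.384%.

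Island-like members had higher scores than the rest, with medians of 81 and 42 against 65 and 31 in the 1160 others. Ordered by their mean percentile, 18.8% of the lowest-scoring, 36.8% of the middle and 49.5% of the highest-scoring of 3 equal groups were island-like, as were 45 of the 50 strongest (90%, 78.6 to 95.7%). By exon position the share was 77.0% in sole coding exons, 61.1% in first, 51.7% in last and 17.5% in internal ones. Zfp316, a zinc finger gene, had a peak of 84 and 42 with a CpG ratio of 1.24 (chr5:143253896-143254045), and C1qtnf4, a secreted C1q-related protein, had one of 126 and 74 with the same ratio (chr2:90889756-90889905). Otud7a, a deubiquitinase, scored 108 and 59, Apba1, a synaptic adaptor protein, 92 and 63, and Neurl1a, a ubiquitin ligase, 86 and 45. Their ratios were 1.24, 1.20 and 1.21.

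Hotspots, the authors' wider regions of enriched cutting, covered nearly all members, 99.6% in replicate 1 and 92.3% in replicate 2. A hotspot carries a −log10 q of at most 6 or the deposited ceiling of 100, and 608 members (34.0%, 31.9 to 36.3%) lay in a hotspot at the ceiling in both libraries, against 32.0% of all distal shared peaks. Their hotspots had median widths of 451 and 275 bp, against 364 and 258 bp for intronic sites and 1235 and 715 bp for promoter peaks. Those of island-like members were wider, 905 and 400 bp, than those of the others, 346 and 246 bp. A hotspot that also covered a TSS of the basic gene set was found for 129 members (7.22%, 6.11 to 8.52%) in replicate 1, 91 of them island-like. In replicate 2 one was found for 30 (1.68%, 1.18 to 2.39%), 20 of them island-like. For the other members in hotspots, the hotspot ended short of any TSS of that set.

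Members stood near other distal sites about as often as intronic peaks did. No other distal shared peak lay within 10 kb of 548 members (30.7%, 28.6 to 32.9%), against 33.0% of intronic and 34.8% of intergenic sites, and the mean number of such neighbours was 1.87 against 1.55 in introns.

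Motif matches were counted on both strands of the 150 bp peak for 18 consensus motifs. A match describes letters, not a bound factor, and bases can count for more than 1 motif, since a CAGCAGG can be part of a CTCF match. At least 1 motif of a distal-site factor occurred in 905 members (50.7%, 48.4 to 53.0%), against 55.2% of intronic, 55.6% of intergenic and 30.0% of promoter peaks and 40.1% of empty coding windows. In that count the members stood nearer to introns than to promoters.

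CTCF matches were about as frequent among all members as in intronic sites, and less frequent among the 855 peaks wholly in coding sequence, with 2.92%. They occurred in 94 members, 5.26% (4.32 to 6.40%), against 5.85% of intronic, 6.68% of intergenic and 1.23% of promoter peaks and 0.0204% of empty coding windows. Members with a match had median scores of 81 and 53, against 70 and 34 without, and 11.7% of them were island-like. Internal exons held 68 of the 94. The strongest were Synpo2l, an actin-associated protein of muscle, with 127 and 105, 1700020L24Rik with 122 and 99, Gpr153, an orphan receptor, with 113 and 87 and Vsig10l with 115 and 78. RFX matches occurred in 22 members (1.23%, 0.815 to 1.86%), against 1.37% of intronic and 0.720% of promoter peaks and 0.110% of empty windows. None of those 22 was island-like. Lonp2, a protease of peroxisomes, scored 105 and 67 there, and Dner, a Notch ligand of Purkinje cells, 104 and 64.

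E-boxes were common in all sets. CAGCTG occurred in 413 members, 23.1% (21.2 to 25.1%), against 16.7% of intronic, 16.2% of intergenic and 10.2% of promoter peaks and 12.1% of empty coding windows, and with GC content weighted alike the other distal sets had 19.7 and 19.6% and the windows 16.4%. CAGATG occurred in 272 members (15.2%, 13.6 to 17.0%), against 17.6% of intergenic peaks and 14.5% of windows. With GC weighted alike those became 14.3 and 13.0%, with 15.3% of intronic peaks, so the order against intergenic peaks turned round. CAGCAGG, a core bound by ZIC factors, occurred in 253 (14.2%, 12.6 to 15.9%), against 9.72% of intronic peaks and 6.91% of windows, which became 11.2 and 11.7% with GC weighted alike. Lpar5, a receptor for lysophosphatidic acid, scored 141 and 90 with this motif (chr6:125081896-125082045), and Garem2 133 and 96.

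Motifs rich in A and T were scarcer than in introns, and the gap was smaller with GC content weighted alike. TAATTA, the homeodomain core, occurred in 21 members (1.18%, 0.770 to 1.79%), against 6.79% of intronic and 7.37% of intergenic peaks and 1.83% of empty coding windows, and with GC weighted alike the intronic share was 2.95% and the windows, at 0.393%, lay below the members. The octamer ATGCAAAT of POU factors occurred in 5 members (0.280%) against 1.66% of intronic peaks, or 0.897% weighted. CATTGT of SOX factors occurred in 103 (5.77%, 4.78 to 6.95%) against 8.79%, and the weighted 6.06% lay within the members' interval. The AP-1 motif TGANTCA occurred in 42 (2.35%, 1.74 to 3.16%) against 4.83%, or 3.69% weighted. Tenm2, a teneurin adhesion protein, scored 116 and 85 with CATTGT (chr11:36221376-36221525). Myo3b, an unconventional myosin, scored 113 and 98 and Nkx2-2, a homeodomain factor of ventral progenitors, 98 and 86 with the AP-1 motif. Matches of NFI, in 2 members, and of REST, in 4, were too few to compare.

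Motifs of promoter factors occurred in 350 members (19.6%, 17.8 to 21.5%), against 13.7% of intronic, 14.0% of intergenic and 46.7% of promoter peaks and 10.7% of empty coding windows. This pooled count was not weighted for GC, and 270 of the 350 members held the GC-rich motif GGGCGG. NRF1 matches were found in 28 members (1.57%, 1.09 to 2.26%) against 0.155% of intronic, 0.217% of intergenic and 2.74% of promoter peaks and 0.0420% of windows, and 0.555% of intronic peaks with GC weighted alike. Members with it had median scores of 102 and 62.5, and 71.4% were island-like. Unc13a, a protein that primes synaptic vesicles, scored 129 and 105 with it in its last coding exon, 45 of 45 (chr8:71629396-71629545), Apold1 scored 130 and 101 and Dapk3, a kinase, 124 and 95. GGGCGG, bound by SP and KLF factors, occurred in 270 members (15.1%, 13.5 to 16.9%), against 5.77% of intronic and 38.1% of promoter peaks. With GC weighted alike intronic peaks had 22.2% and intergenic ones 23.4%, so the order turned round. CCAATCA, CCGGAAGT and TGACGTCA, of NFY, ETS and CREB factors, occurred in 1.46, 0.504 and 0.280% of members, against 5.25, 3.16 and 1.79% of promoter peaks. TATAAA occurred in 1.40% against 2.65% of promoter peaks, and YY1 in 0 of 1786, for which the interval reaches 0.215%, against 0.714%.

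**Figure D5:**
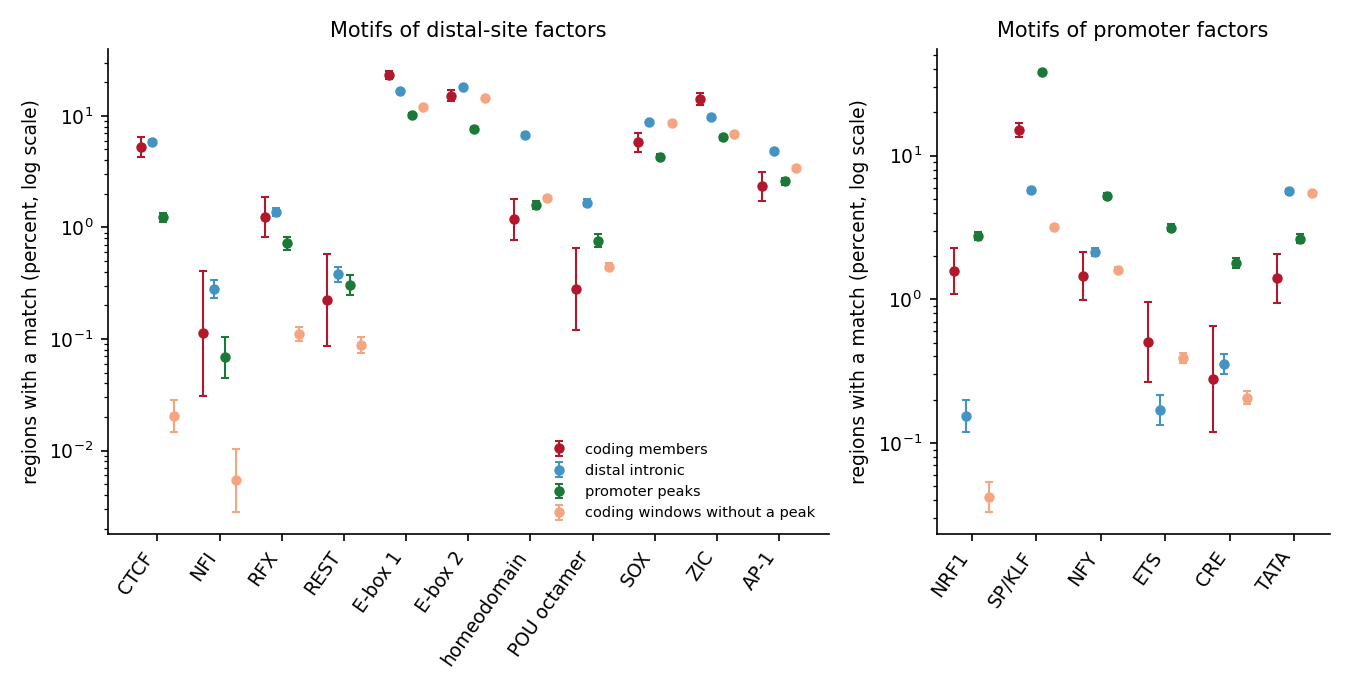
Regions with at least 1 match in percent, on a log scale (vertical axes), for motifs of distal-site factors (left) and of promoter factors (right), with 95% Wilson intervals as bars. E-box 1 is CAGCTG and E-box 2 is CAGATG, and YY1, at 0 among members, is not drawn. Members lie beside intronic peaks for CTCF, at 5.26 and 5.85%, and between intronic and promoter peaks for NRF1, at 1.57%.

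Starts that the basic gene set leaves out were looked for within 500 bp of each midpoint. RefSeq starts were not filtered against that set, so for promoter peaks the shares also count starts that it holds. The promoter shares are therefore not a like comparison. Any further GENCODE start or RefSeq start was near 324 members (18.1%), against 6.28% of intronic, 3.87% of intergenic and 74.9% of promoter peaks. Most came from further GENCODE transcripts, near 269 members (15.1%, 13.5 to 16.8%), and here empty coding windows gave almost the same, 12.9%. Starts of RefSeq transcripts were near 75 members (4.20%, 3.36 to 5.23%), against 3.13% of intronic, 3.59% of intergenic and 70.6% of promoter peaks and 1.75% of empty windows. Of these 75, 12 had a curated RefSeq start and 64 a predicted one. For the members outside the 324 neither annotation held a start that close.

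The curated starts were mostly the host gene's own. They belonged to the host gene at 9 of the 12 members and lay on its strand at 10, at a median of 256 bp, and 9 of the 12 were island-like, with median scores of 87 and 44. Psmc2 had its start 16 bp from the peak midpoint, and 2310034G01Rik, with scores of 137 and 99, had its own 3 bp away. Fzd8, a Wnt receptor, had a curated start 415 bp from a peak of 108 and 65. The following were chosen after their values were seen. Camk2n1, an inhibitor of CaM kinase II, scored 70 and 42 with a start at 183 bp, and Fjx1, related to the fly kinase Four-jointed, 86 and 29 at 381 bp. Casz1, a zinc finger factor, scored 82 and 41 with a start of Gm13205 at 351 bp. E2f2, a cell cycle regulator, scored 89 and 44 with a start at 211 bp.

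Predicted starts were split between strands. Of the 64 members near one, 28 had a start of the host gene and 32 a start of another gene on the opposite strand, at a median of 184 bp, and 38 were island-like. Cacna1a exon 47, Angptl6, Unc13a and Apold1 were among them. Gfra4, a receptor for the neurotrophic factor persephin, scored 127 and 89 (chr2:131041376-131041525) and Slc1a6, the glutamate transporter of Purkinje cells, 130 and 82 (chr10:78787836-78787985).

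Members were also set side by side by CpG density and by start. The 47 island-like members near a RefSeq start had median scores of 94 and 49, hotspot widths of 1054 and 446 bp and a promoter-factor motif in 38.3%. The 28 near a RefSeq start that were not island-like scored 67 and 35, with widths of 594 and 336 bp and such a motif in 21.4%. The 493 island-like members with no further start had scores of 80 and 42, widths of 853 and 410 bp and such a motif in 27.8%. A CTCF match occurred in 3 of the 47 (6.38%), 0 of the 28 and 7 of the 493 (1.42%). Members with only a further GENCODE start were 86 island-like ones, with scores of 81.5 and 42 and CTCF in 1.16%. The 163 others of that kind had 67 and 33 and CTCF in 8.59%. The 969 members that were not island-like and had no further start scored 64 and 31, had hotspots of 342 and 242 bp, held a promoter-factor motif in 13.1% and a CTCF match in 69 (7.12%). Intronic sites had medians of 68 and 31, widths of 364 and 258 bp, such a motif in 13.7% and CTCF in 5.85%. Promoters had 95 and 53, 1235 and 715 bp, 46.7% and 1.23%. The 969 lay close to intronic sites in each of these values, and the 47 lay between intronic sites and promoters in hotspot width. Motif shares were not weighted for GC in these groups, whose median GC was 69.3% in the 47 and 54.7% in the 969. No measure of transcription was used here, so whether any member starts a transcript was not tested.

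The 1786 members lay in 1491 genes. A sole member was found in 1261 genes, 2 in 182 and 3 or more in 48. Of 19608 protein-coding genes with distal coding sequence, 7.48% held a member. The gene groups below were matched by symbol, and their densities are set against 59.4 members per Mb over all genes.

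Transcription factor genes of development were dense in members and most of their sites were island-like. Homeobox genes, which include the Hox genes that pattern the hindbrain along its length, held 247 members per Mb, in 29 of 166 genes, and 77.5% of their 40 members were island-like. Hoxb3, a Hox gene of the hindbrain, had peaks of 83 and 37 and of 59 and 22 in its last coding exon. Lhx5, a factor of hindbrain interneurons and Purkinje cells, scored 87 and 42, and Meis1, a Hox cofactor, 57 and 38. Pitx3, a factor of midbrain dopamine neurons, had 4 members, from 41 to 80 and from 24 to 54. Rax, an eye field factor, scored 95 and 60, so hosts were not all hindbrain genes. The group's median scores, 62.5 and 32, lay below those of all members, 70 and 35.

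The SOX, ZIC, NFI and proneural genes held 249 per Mb, in 25 of 113 genes, with 69.7% of 33 members island-like. Neurog2, a proneural factor that starts neuronal differentiation, scored 101 and 86 in its sole coding exon and held CAGATG. Ascl4 scored 130 and 92. Hes1, a Notch target that keeps progenitors from differentiating, scored 104 and 71, and Hey1, another Notch target, 91 and 78 with a CTCF match. Sox9, a factor of glial and neural stem cells, scored 104 and 42 in its last coding exon. Zic1, needed for cerebellar growth, had peaks of 62 and 41 and of 58 and 32, and Nfix, an NFI factor, 61 and 33. Sox17, an endoderm and endothelial factor, had 4 members with scores of 43 to 48 and 24 to 29, among the lower scores of the group.

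Signalling genes of the Notch, Wnt and hedgehog pathways held 207 per Mb, in 15 of 53 genes, with 79.2% of 24 members island-like and median scores of 91 and 47.5. Among ligands, Wnt1, a signal of the midbrain-hindbrain boundary and the dorsal midline, scored 108 and 54 in its last coding exon, and Wnt3 scored 100 and 57. Dll3, a Notch ligand, had 3 members, of which the strongest scored 126 and 79 (chr7:28294636-28294785). Among receptors, Fzd7 scored 113 and 74 and Fzd1 91 and 52 and 85 and 38. Fzd8 had 4 members in its sole coding exon, from 69 to 115 and from 25 to 73. Notch3 scored 93 and 68 in exon 24 of 33, and Ptch1, the receptor of hedgehog ligands, 59 and 36. All members in frizzled genes lay in the sole coding exon of the gene and were island-like.

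Genes of neuronal function were intermediate in density. Voltage-gated channel genes held 121 members per Mb, in 27 of 136 genes, with 58.8% of 34 island-like. Scn8a, a sodium channel of axons, scored 120 and 75 in exon 11 of 26, Kcng2 112 and 62, and Kcnh2, a potassium channel, 111 and 56. Axon guidance genes held 97.2 per Mb, in 16 of 76 genes, with 21.7% of 23 island-like. Robo3, which lets hindbrain axons cross the midline, scored 130 and 90 in exon 17 of 28 and 72 and 35 in exon 16, and Ntng1, a netrin-related adhesion protein, 100 and 63. Ntn1, the midline attractant netrin-1, scored 73 and 40.

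Other groups lay near or below the genome-wide density, and the clustered protocadherins lowest. Protocadherins outside the clusters and large cadherins held 62.2 per Mb, cytoskeletal genes 61.6, chromatin regulators 54.7, zinc finger genes named Zfp 41.7, collagens and laminins 34.3 and the clustered protocadherins 21.7, in 2 of 55 genes. By genes holding a member the picture differed. The share was 18.1% of cytoskeletal genes, 17.5% of chromatin regulators and 14.9% of the other protocadherins and large cadherins. It was 12.7% of collagens and laminins, 5.43% of Zfp genes and 3.64% of clustered protocadherins. Homeobox genes had 17.5% and all protein-coding genes 7.48%. Chromatin regulators were rarely island-like, in 4.55% of 22 members, and collagens and laminins in 0 of 9. Chd7, a chromatin remodeller, had 3 members, the highest 88 and 38, and Smarcb1, a subunit of the BAF complex, a peak of 69 and 53 with a CTCF match. Kif26b, a kinesin, scored 121 and 76, and Col6a3, a collagen VI chain, 110 and 49.

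Several genes held rows of members. Tchh, trichohyalin of hair follicles, held 9 in a coding exon of 4659 bp, all island-like, with scores from 27 to 128 and from 22 to 68. Lor, loricrin of the epidermis, held 4 in its sole coding exon, from 90 to 119 and from 46 to 69. Both genes are known from skin rather than nervous tissue. Zfp503, a zinc finger repressor, held 4 in its second coding exon, from 50 to 127 and from 35 to 63, and Lrrtm1, a synaptic adhesion protein, 4 in its sole coding exon, from 74 to 88 and from 29 to 52. Islr2 held 4, from 53 to 85 and from 21 to 38. Cul9, a cullin, held 5 in 5 different exons, none island-like, and the peak in exon 13 of 40 had a CTCF match and the highest scores, 91 and 62, against 30 to 45 and 18 to 22 in the others. Ltbp3, a binding protein of latent TGF-beta, held 5 in 5 exons, from 43 to 59 and from 21 to 32. Cacna1a held 3, with 71 and 44 in exon 19 and 55 and 35 in exon 37 beside exon 47. Peaks in 1 exon share sequence context and often a hotspot, so they are not independent sites.

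The members farthest from any start were Nol4, 67 and 27, at 319625 bp, Sox6, 49 and 21, at 304758 bp, Lrp1b, 66 and 26, at 290787 bp, Thsd7a, 110 and 63, at 184187 bp and Arhgap15, 91 and 34, at 177807 bp. None of them was island-like, and Thsd7a held the only CAGCTG among them. Closest to the limit of 1 kb, Etv2 with 52 and 37, Erh with 46 and 34 and Pcdh17 with 51 and 30 lay at 1001 bp, and Fzd1 with 91 and 52 and Synj1 with 76 and 24 at 1004 bp. Just short of it lay Otud1 with 59 and 29 and 2610507B11Rik with 88 and 44 at 999 bp, Six6 with 24 and 30 and Hcrt with 118 and 84 at 997 bp and Pcbp1 with 51 and 31 at 996 bp. The longest exons holding a member were those of Cmya5, 9310 bp with scores of 57 and 30, Spen, 8020 bp with 86 and 53, and Fam186a, 7978 bp with 36 and 16.

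A near-identical copy elsewhere in the genome, with at least 90% identity over at least 80% of the peak, was found for 35 members (1.96%, 1.41 to 2.71%), with median scores of 54 and 29. Reads of such sites may be shared between the copies, which makes their scores uncertain. They included, chosen after their values were seen, Hoxb3 at 83 and 37, Hoxd3 at 47 and 38, Fzd1 at 91 and 52, Cyp4f13 at 122 and 83 and 3 of the 9 members of Tchh. Of all members 24 overlapped another member, and merging them left 1773 separate regions.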

How the data were processed

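DNase-seq peaks and hotspots were analysed for 2 biological replicates of hindbrain at embryonic day 14.5. Per the labels, the authors made both replicate by replicate, from alignments to mm10 that had been filtered. The aligner, the caller and the thresholds were not given in the sources used here. Peaks carry a score in the deposited files, a whole number of at most 150 whose meaning is not stated, and hotspots carry a −log10 q value in the deposited files, capped at 100. Scores were compared by rank, as the percentile among all peaks of a library. No read counts were used, so depth is unknown and intervals cover counting error only.

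Members were replicate 1 peaks overlapping a replicate 2 peak by 1 bp or more, with the midpoint in coding sequence of GENCODE M21 basic and over 1 kb from each of its 77200 TSSs. The exon position of a member came from the transcript with the longest coding sequence among those holding its midpoint. Densities by exon, along the coding sequence and by gene group used 1 transcript per gene, the one with the longest coding sequence. Member counts used any transcript. Coding windows were 1 per merged coding interval, centred, touching no peak or hotspot of either library. Island calls used 500 bp around the midpoint, motifs 150 bp on both strands, and GC weighting matched each set to the members in bins of 5% GC. Further starts came from GENCODE transcripts outside the basic set (55475) and from RefSeq (31594 curated, 47494 predicted). RefSeq starts were not filtered against the basic set. Those within 500 bp of a member lie outside it, because members are over 1 kb from its TSSs. Copies were found with BLAST+ 2.17.0. Tools were Python 3.11.15, numpy 2.4.6, pandas 2.3.3, pysam 0.24.0 and samtools 1.23.1, and the code was tested on simulated data.

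The members and lists were chosen with earlier results of these data known. Genes were named by rule: the strongest and weakest members, those with the largest difference in percentile, genes with the most members, the strongest per motif, the highest CpG ratios, members near a further start, those farthest from a start or nearest the 1 kb limit, those in the longest exons, and members of the gene groups. Names outside it are marked in the text. No test between samples was possible with 1 group. Some items are not reported here.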

Additional observations from a re-analysis of the deposited data

How the results depend on the processing

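The results were recomputed under alternative choices, which gave 132 values, 71 of them within the 95% interval of the value reported (for counts, within 1.5 times) and 61 outside it. These are single shares, counts and medians without a direction, and the comparison sets were not recomputed. Positions taken from replicate 2 gave 28.5% of members with no neighbour, against 30.7%. An overlap of at least 50% of the peak gave 33.1% with no neighbour and a shared share of 37.4%, against 41.7%. A limit of 500 bp from a TSS gave a coding share of 2.67%, 19.7% in last coding exons, 43.3% island-like, 4.08% with CTCF, 6.94% near a RefSeq start and 25.5% with no neighbour. A limit of 5 kb gave 1045 members, a coding share of 1.64%, a replicate 2 median of 33, 20% island-like, 2.20% near a RefSeq start, 38.4% with no neighbour and a shared share of 39.4%. Only peaks wholly in coding sequence gave 855 members, a coding share of 1.06%, medians of 75 and 37, 31.6% in last coding exons, 58.0% island-like, 2.92% with CTCF, 25.3% with no neighbour and a shared share of 44.8%. Scores at or above the library median in both libraries gave 1111 members, a coding share of 2.53%, medians of 83 and 45, 26.8% in last coding exons, 43.8% island-like, 54.0% in capped hotspots of replicate 2 against 34.9%, 7.20% with CTCF and 41.2% with no neighbour. A window of 150 bp gave 43.6% island-like. Choosing peaks from 1 replicate alone, which drops the overlap, gave 2185 to 4282 members, a coding share of 1.97 to 2.00%, 21.6 to 24.6% in last coding exons, 24.3 to 34.1% island-like, 15.5 to 30.2% in capped hotspots of replicate 2 (its hotspots were still used where its peaks were left out), 2.41 to 4.21% with CTCF, 3.34 to 4.26% near a RefSeq start and 12.7 to 21.5% with no neighbour, and medians of 47 in replicate 1 alone and 31 in replicate 2 alone. Internal exons held 49.0% at 500 bp. The fall in numbers under stricter choices follows from their construction, and the cause of the other differences was not tested. Leaving out members with near-identical copies, or counting overlapping members once, chosen after seeing the data, moved no result beyond these limits. No paired analysis was possible because there was 1 group and no contrast. Precision is limited by 2 libraries of unknown depth.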

Other observations

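The following members with near-identical copies were chosen after their values were seen. In the Cyp4f family of cytochrome P450 genes, Cyp4f16 held peaks of 70 and 35 and of 94 and 57 in replicates 1 and 2, Cyp4f37 held 87 and 56 and Cyp4f40 held 61 and 23. Cyp4f13 held 122 and 83. In the calcium-activated chloride channel regulators Clca3a1, Clca3a2 and Clca3b, peaks scored 42 and 36, 35 and 25, and 89 and 72. Pou4f1, a POU factor of sensory neurons, held 73 and 30 and 73 and 32. How reads were shared between copies was not tested.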
